A study of Macaca mulatta with 19 samples.

Results

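The comparison described here sets 6 rhesus macaques given a Western-style diet with testosterone (WSD+T) against 4 given chow with testosterone (Chow+T). The 10 libraries, of 19 in the series, were chosen by the treatment group in their labels. RNA was sequenced from luteinized granulosa cells, which came from the single periovulatory follicle that each animal had selected naturally. Treatment began near menarche and ran for about 3.5 years, with 10 animals enrolled per treatment and 7 to 10 entering controlled ovulation cycles. Animals of both groups carried an implant that raised testosterone 4 to 5 fold above that of cholesterol implants, so that only the diet differed by design. The remaining libraries came from animals with cholesterol implants, on chow (Chow+C, n = 4) or on the Western-style diet (WSD+C, n = 5), and served as the diet comparison without testosterone. Each library bears its own animal identifier and is taken as 1 animal. The follicle contents were aspirated, and no sort or gate of the cells is named, so the RNA can hold that of other cells in the aspirate. Libraries are written as the group and a replicate number, which follows the order of the samples and pairs nothing.

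Granulosa cells surround the oocyte, make estradiol from androgen before the gonadotropin surge, and luteinize after it. They then take up and make cholesterol, which STAR moves into mitochondria, where CYP11A1 turns it into pregnenolone for HSD3B2 to convert to progesterone. Androgen excess and a Western-style diet are both linked to altered follicle growth and ovulation in primates, and the diet supplies the lipid from which the cells can draw their cholesterol.

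The oocyte classes in the labels were not balanced between the groups. Chow+T 1 came with a degenerating oocyte, Chow+T 2 and 3 with metaphase II (MII) oocytes and Chow+T 4 with a germinal vesicle (GV) oocyte. In WSD+T, replicate 1 came with an MII oocyte, replicates 2 and 5 with metaphase I (MI) oocytes and replicates 3, 4 and 6 with degenerating oocytes. No MI oocyte was in Chow+T and no GV oocyte in WSD+T.

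Gene counts per library were 39070550 to 54804607 in Chow+T and 35582942 to 56385679 in WSD+T. An exact permutation test of their means over the libraries gave a two-sided p of 0.90 (adjusted over 3 library values 0.90), in which 6 against 4 cannot give a p below 0.0095. Mitochondrially encoded genes took 3.56% ± 2.43 (SD, n = 4) of gene counts in Chow+T, from 1.05% to 6.81%. In WSD+T they took 7.01% ± 3.80 (SD, n = 6), from 0.795% to 11.4%, and the exact permutation p was 0.15 (adjusted 0.45). Levels are given as CPM, a gene's count scaled to its library's total over the tested genes, with that total adjusted by a TMM scaling factor. Of 12 matched granulosa markers, 12 were at 1 CPM or more in all 10 libraries. WSD+T 6 and WSD+T 3 stood apart from the other libraries. Over the tested genes, the median Spearman correlation of log2 CPM with the other 9 libraries was 0.899 for WSD+T 6, 0.937 for WSD+T 3, 0.955 for Chow+T 2 and 0.969 to 0.975 for the rest. Correlations were 0.954 to 0.975 within Chow+T, 0.894 to 0.980 within WSD+T and 0.892 to 0.979 between the groups, so libraries of unlike diet were about as alike as those of the same diet. The title of WSD+T 6 has a suffix that no other title has and whose meaning the labels do not give.

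No gene differed between WSD+T and Chow+T past the adjusted threshold. Of 15019 genes tested by edgeR's quasi-likelihood test, 0 (0%) had a Benjamini-Hochberg adjusted p under 0.05, and the smallest adjusted p was 0.862. An unadjusted p under 0.05 was reached by 747 genes (4.97%), 331 higher in WSD+T (2.2%) and 416 lower (2.77%). The balance of the 2 directions turned on single libraries, with 375 higher and 262 lower without Chow+T 2 and 183 higher and 348 lower without WSD+T 6. Limma-voom likewise called 0 genes, with 575 at an unadjusted p under 0.05. DESeq2, which was run without the filter on low counts, had 1222 of 24300 genes at that level (5.03%) and called 2, FCRL1 and a gene with no symbol. FCRL1, an Fc receptor-like protein of B cells, had 0 counts in all 4 Chow+T libraries and at most 48 in a WSD+T library, WSD+T 3. The gene with no symbol, ENSMMUG00000049007, was higher by 3.17 on the log2 scale (DESeq2 adjusted p = 0.0296). These p-values compare 10 animals, but rest on a biological coefficient of variation of 0.583 fitted over all 19 libraries. The 19 include WSD+C 4, a library of the comparison without testosterone that stands apart, as described below. Fitted alone by edgeR, the 10 libraries had 0 genes past the threshold and 947 of 14149 (6.69%) at an unadjusted p under 0.05. With WSD+C 4 left out these were 0 and 1256 of 14767 (8.51%).

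Most differences were small. The median log2 fold change was 0.04, the median size without sign was 0.24, and 55% of the tested genes were higher in WSD+T. The genes at an unadjusted p under 0.05 differed in level between the 2 directions. The 416 lower genes had a median log2 CPM of 5.18 and a median log2 fold change of -0.67, whereas the 331 higher genes had medians of 2.37 and 1.17, beside a median log2 CPM of 3.79 over all tested genes. In 176 genes (1.17%) the 6 WSD+T values all lay on 1 side of the 4 Chow+T values. These were 88 higher (0.586%) and 88 lower (0.586%), and 111 of them (0.739%) also had an unadjusted p under 0.05. The plot of all tested genes shows how the non-overlapping genes spread over the range of expression.

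**Figure D1:**
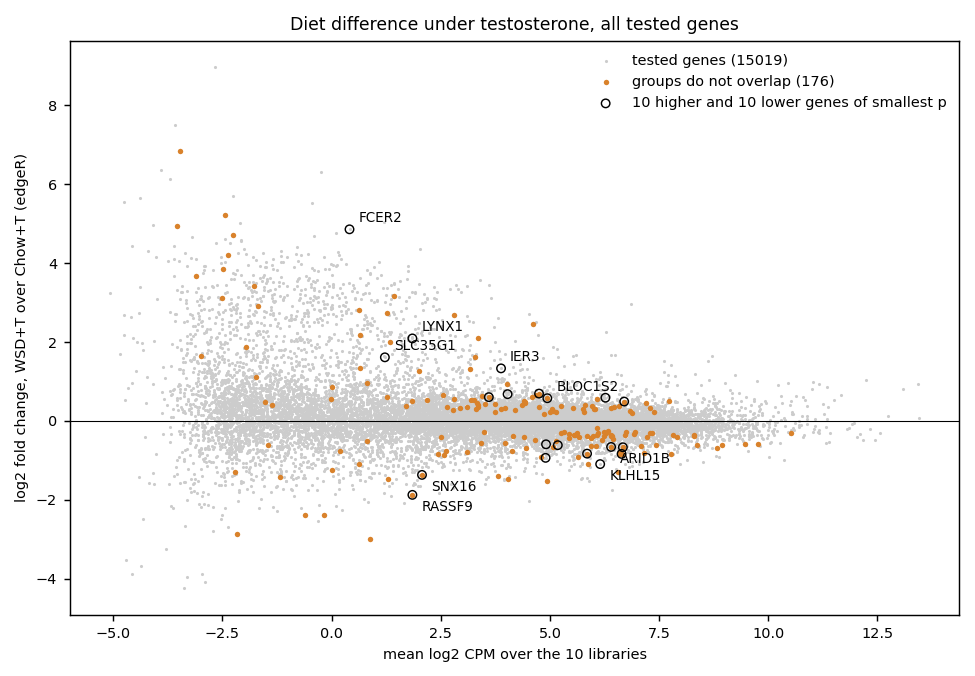
Log2 fold change of WSD+T over Chow+T (edgeR) against the mean log2 CPM over the 10 libraries for the 15019 tested genes, 1 point per gene. Orange points are the 176 genes whose groups do not overlap, and open circles are the 10 higher and 10 lower genes of smallest p. Fold changes above 2 on the log2 scale lie mostly among genes of low expression, and most well expressed genes lie near 0.

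The 10 higher genes of smallest unadjusted p and the 10 lower ones are described next, as a description and not as calls, since all 20 had an adjusted p of 0.862 in edgeR's test. The higher genes include an interferon-induced protein, an enzyme of NADPH supply and an immune receptor, and the lower genes include regulators of chromatin and transcription. The values are TMM-scaled CPM, and compare libraries within a gene, not genes with each other.

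BLOC1S2 encodes a subunit of complexes that place and build lysosome-related organelles. Its level was 23.9, 18.8, 26.9 and 27.5 CPM in Chow+T 1 to 4, and 32.9 at the lowest, 35.1 at the median and 40.2 at the highest in WSD+T. All 6 WSD+T libraries were above all 4 Chow+T libraries, by a log2 fold change of 0.58 (SE 0.14, edgeR unadjusted p = 0.000657). UTP14A, a nucleolar protein of the machinery that processes the small ribosomal subunit, stood at 10.9, 9, 7.14 and 11.2 CPM in Chow+T 1 to 4. It ranged from 11.2 to 18.4 CPM in WSD+T, with a median of 13.6, and the groups touched without overlapping (log2 fold change 0.60, SE 0.18, edgeR unadjusted p = 0.00359). IFI35, an interferon-induced protein, was at 23.7, 19.7, 16.7 and 21.4 CPM in Chow+T 1 to 4 and at 25.1, 31.0 and 44.5 CPM at the lowest, median and highest in WSD+T. Its groups did not overlap, with a log2 fold change of 0.69 (SE 0.21, edgeR unadjusted p = 0.004). PGD, an enzyme of the pentose phosphate pathway that yields NADPH, measured 82.0, 84.9, 94.2 and 79.6 CPM in Chow+T 1 to 4 and 96.0 to 133.5 CPM in WSD+T, with a median of 122.5. WSD+T was above Chow+T in every library here too, by 0.49 on the log2 scale (SE 0.156, edgeR unadjusted p = 0.00554).

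In the other 6 higher genes the groups overlapped. NDUFAF4, an assembly factor of respiratory complex I, was at 13.0, 9.22, 11.7 and 16.2 CPM in Chow+T 1 to 4 and at 14.1 to 23.9 CPM in WSD+T, with a median of 20.5. Only WSD+T 4 and Chow+T 4 crossed, and the log2 fold change was 0.68. SRSF8, a splicing factor, ranged from 45.2 to 77.3 CPM in Chow+T and from 73.8 to 134.0 in WSD+T (log2 fold change 0.59). IER3, an immediate early gene, was at 18.8, 11.7, 3.65 and 4.89 CPM in Chow+T 1 to 4, and between 12.7 and 40.6 CPM in WSD+T (median 20.1). Its 2 highest values were those of WSD+T 3 and 6, and its log2 fold change was 1.33. Those same 2 libraries set the upper end of LYNX1, a modulator of nicotinic acetylcholine receptors, and of SLC35G1, a solute carrier. LYNX1 was at 1.33 to 2.47 CPM in Chow+T and at 2.43 to 5.06 CPM in 4 WSD+T libraries, but at 13.2 in WSD+T 3 and 16.8 in WSD+T 6 (log2 fold change 2.09). SLC35G1 reached 10.9 CPM in WSD+T 3, against 2.00 to 5.13 in the other WSD+T libraries and 1 to 2.06 in Chow+T, and its log2 fold change was 1.61. FCER2, the low-affinity IgE receptor found on B cells, was high in 2 animals alone. It stood at 55.6 CPM in WSD+T 4 and 45.3 in WSD+T 6, at 0.0766 to 2.91 in the other 4 WSD+T libraries and at 0.222 to 0.808 in Chow+T, so that its log2 fold change of 4.86 (SE 1.60) was carried by those 2.

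RASSF9, a member of the Ras-association domain family, had the smallest p of all the lower genes. Its level was 8.98, 11.8, 5.37 and 7.70 CPM in Chow+T 1 to 4, and 0.978, 2.47 and 3.52 CPM at the lowest, median and highest in WSD+T. Every Chow+T value was above every WSD+T value, and the log2 fold change was -1.87 (SE 0.425, edgeR unadjusted p = 0.000357). ARID1B, a subunit of the SWI/SNF chromatin remodelling complex, was at 88.7, 138.5, 141.3 and 82.2 CPM in Chow+T 1 to 4 and at 65.3 to 81.1 CPM in WSD+T, with a median of 69.3. The groups came close at the edge but did not overlap (log2 fold change -0.66, SE 0.15, edgeR unadjusted p = 0.000372). HBP1, an HMG-box transcriptional repressor, measured 110.1, 157.5, 199.5 and 108.9 CPM in Chow+T 1 to 4. In WSD+T it measured 62.1 to 107.9 CPM with a median of 79.4, below all of Chow+T, and its log2 fold change was -0.83 (SE 0.209, edgeR unadjusted p = 0.000884).

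PLOD2, a lysyl hydroxylase that modifies collagen, was at 138.4, 125.0, 124.1 and 156.9 CPM in Chow+T 1 to 4. In WSD+T it was at 67.1 to 114.8 CPM with a median of 83.0, without overlap, for a log2 fold change of -0.67 (SE 0.17, edgeR unadjusted p = 0.00104). JMY, a cofactor of p53 that also nucleates actin, was at 84.6, 74.9, 92.9 and 85.4 CPM in Chow+T 1 to 4 and at 25.6, 53.8 and 65.0 CPM at the lowest, median and highest in WSD+T. Its 2 lowest values were those of WSD+T 3 and 6, the groups did not overlap, and the log2 fold change was -0.83 (SE 0.218, edgeR unadjusted p = 0.00137). SNX16, a sorting nexin of endosomes, was at 4.49, 5.53, 18.2 and 4.19 CPM in Chow+T 1 to 4 and at 2.29 to 3.83 CPM in WSD+T. Although the groups did not overlap, Chow+T 3 carried most of the size of the difference: the log2 fold change was -1.37 with this library and -0.59 without it.

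The other 4 lower genes overlapped between the groups. C5orf41, the older symbol of the gene for CREB3 regulatory factor, was at 45.8, 40.2, 61.1 and 34.95 CPM in Chow+T 1 to 4. It was at 17.4 to 21.9 CPM in 5 WSD+T libraries and at 39.5 in WSD+T 4, so that 1 library made the overlap (log2 fold change -0.93, SE 0.212, edgeR unadjusted p = 0.000358). SKI, a corepressor of SMAD signalling, had a log2 fold change of -0.59, with 28.7 to 46.8 CPM in Chow+T and 21.9 to 32.0 in WSD+T. KLHL15, an adaptor of a cullin ubiquitin ligase, had one of -1.09, with 61.0 to 142.6 against 35.9 to 84.1 CPM. NCOA2, a coactivator of nuclear receptors, had one of -0.61, with 36.4 to 58.7 against 24.6 to 38.1 CPM. In all 3 the lowest Chow+T value was that of Chow+T 4, the library with a GV oocyte, and lay inside the WSD+T range. The 20 genes were chosen for their small p in these same libraries. With oocyte class as a term and Chow+T 4 left out, all 10 lower genes kept their direction and an unadjusted p under 0.05. Of the 10 higher genes, 10 kept their direction in that fit and 7 an unadjusted p under 0.05.

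**Figure D2:**
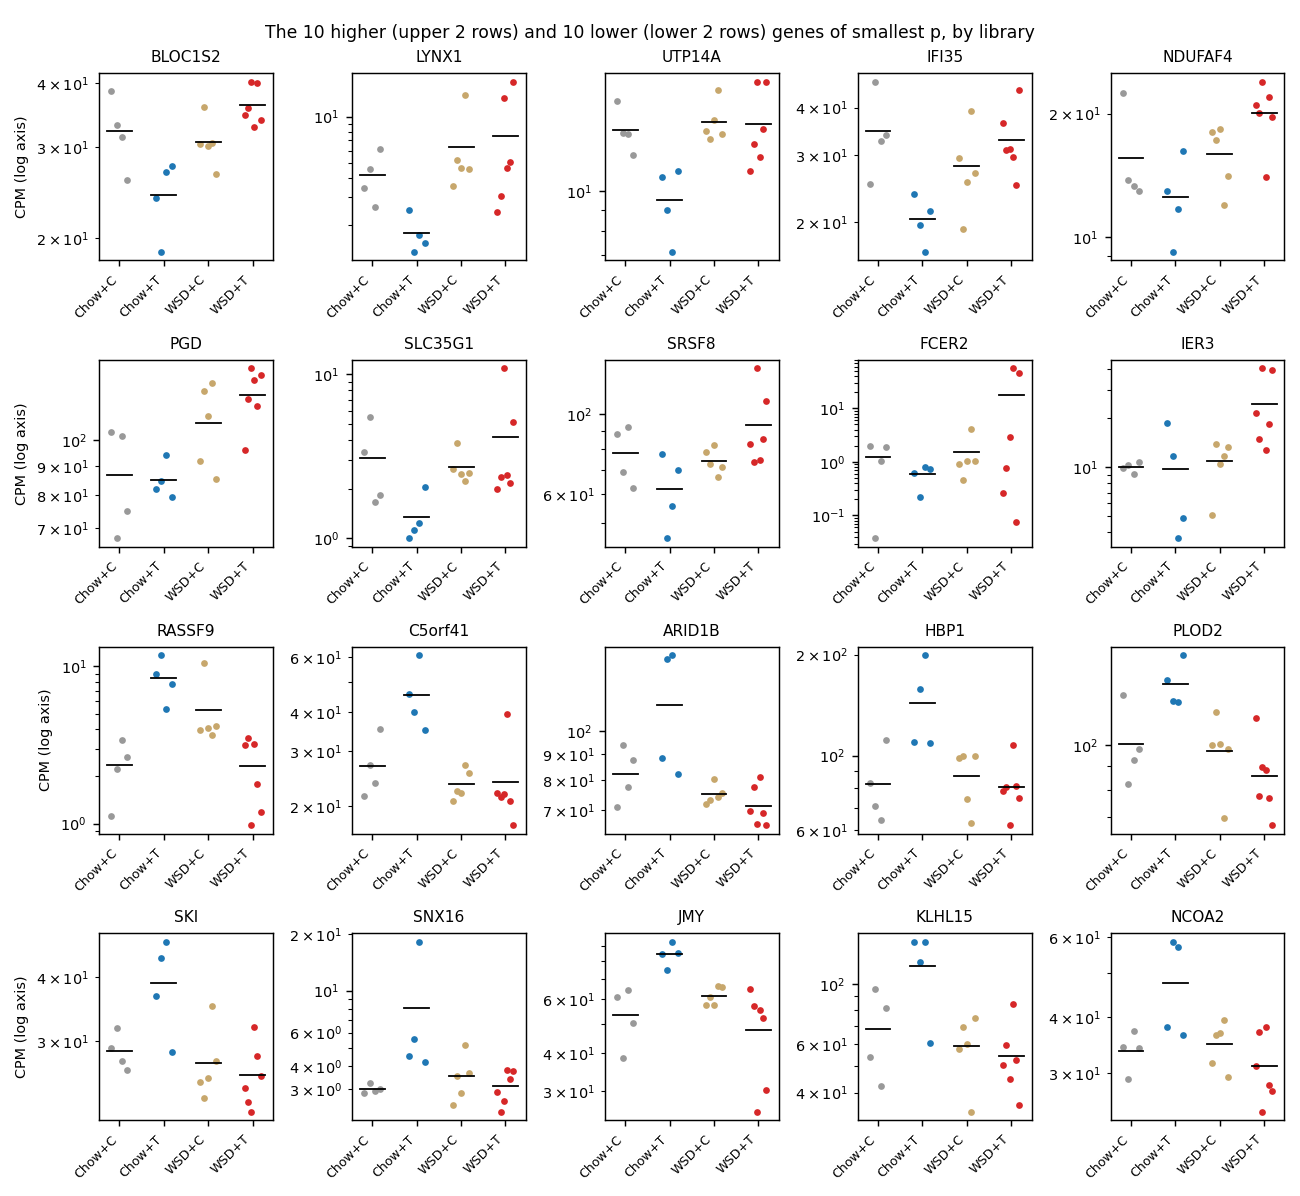
Level of the 10 higher genes (upper 2 rows) and 10 lower genes (lower 2 rows) of smallest p, in CPM on a log axis, in the 4 treatment groups. Each point is 1 library and each bar the mean of a group, which has 4 (Chow+C, Chow+T), 5 (WSD+C) or 6 (WSD+T) libraries. Chow+T is at the low end of the 4 groups for the higher genes and at the high end for the lower genes.

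Set beside all 4 treatment groups, Chow+T was the group at the extreme for these genes, a position that their choice favours. Its mean was the lowest of the 4 group means in 10 of the 10 higher genes and the highest in 10 of the 10 lower genes. WSD+T lay at the opposite extreme in 8 and 8 of them. RASSF9 averaged 8.46 CPM ± 2.68 (SD, n = 4) in Chow+T, against 2.36 ± 0.962 (SD, n = 4) in Chow+C, 5.25 ± 2.91 (SD, n = 5) in WSD+C and 2.31 ± 1.13 (SD, n = 6) in WSD+T. HBP1 averaged 144.0 CPM ± 43.4 (SD, n = 4) in Chow+T, while the other groups averaged 80.8 to 87.0. IFI35 averaged 20.4 CPM ± 2.93 (SD, n = 4) in Chow+T and 28.1 to 34.7 in the others.

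The diet comparison without testosterone, WSD+C against Chow+C, shares no library with the one under testosterone. One of its libraries, WSD+C 4, stood apart from all others. It came with a degenerating oocyte and had 13636 genes at 1 CPM or more, beside 11663 to 12462 in the other 18 libraries. Its marker scores, each a mean log2 CPM, were 7.00 for leukocytes, 9.28 for erythroid cells and 5.37 for smooth muscle, against 2.77, 1.68 and 1.20 at most in the other WSD+C libraries, and its granulosa score of 6.22 was the lowest of the 19. Values without testosterone are therefore given with and without it where they differ.

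The comparison without testosterone too had 0 genes past the threshold by edgeR, by DESeq2 and by limma-voom, with 763 (5.08%) at an unadjusted p under 0.05 by edgeR (375 higher, 2.5%, and 388 lower, 2.58%), 1157 by DESeq2 and 294 by voom. Without WSD+C 4 edgeR had 884 (5.99%) at that level. Of all tested genes 52.6% were higher on the Western-style diet without testosterone, and 51% had a positive interaction. The 2 diet differences had the same sign in 7702 of 15019 genes (51.3%). Across genes, which are not independent replicates, their log2 fold changes correlated with Pearson's r = 0.437 and Spearman's rho = 0.08. Without WSD+C 4 the sign was the same in 46.3% of 14767 genes, r was -0.22 and rho -0.17, so the positive correlation rested on that library. Of the 747 genes at an unadjusted p under 0.05 with testosterone, 387 (51.8%) had the same sign without it and 25 (3.35%, beside 5.08% of all genes) had an unadjusted p under 0.05 there too, 16 of them with the same sign. The share with the same sign among these genes was thus close to that among all tested genes. Without WSD+C 4 the count at that p under testosterone was 1256, of which 493 (39.3%) had the same sign and 42 (3.34%) an unadjusted p under 0.05 in both.

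The interaction term tests whether the diet difference itself differed with testosterone. By edgeR it passed the threshold in 0 genes (0%, smallest adjusted p 0.933), with 679 (4.52%) at an unadjusted p under 0.05, 393 (2.62%) with a higher and 286 (1.9%) with a lower diet difference under testosterone. Among the 747 genes, 230 had an unadjusted interaction p under 0.05, a count that the choice of genes raises because both use the same libraries. RASSF9 had the largest contrast among the named genes of the lower set: its diet difference was -1.87 on the log2 scale with testosterone and 1.15 (SE 0.458) without, an interaction of -3.02 (SE 0.63, edgeR unadjusted p = 0.000153, adjusted 0.933). Without WSD+C 4 these were 1.25 and -3.12. DESeq2 called 3 genes for the interaction, with 1023 at an unadjusted p under 0.05. These were RASSF9 (DESeq2 adjusted p = 0.0117), FCRL1 (1.8e-08) and CKB, a brain-type creatine kinase (0.0318). CKB had at most 3 counts in a Chow+T library and 123 in WSD+T 3, and FCRL1 was at 0 in every Chow+T library. Of the non-overlapping genes above, IFI35 had a diet difference of 0.69 with testosterone and -0.31 without (-0.46 without WSD+C 4), and JMY one of -0.83 and 0.21. PGD kept its sign, at 0.49 and 0.30 (SE 0.161), and so did ARID1B, at -0.66 and -0.14 (SE 0.158).

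White blood cell markers averaged higher in WSD+T, where 1 animal, WSD+T 6, lay far above the others. Among the tested markers, 15 of 15 of macrophages, 14 of 14 of lymphocytes, 9 of 9 of neutrophils and 11 of 12 shared by leukocytes had a positive log2 fold change, beside 55% of all genes. Their medians were 3.25, 3.04, 2.90 and 3.11 on the log2 scale, beside 0.04 over all genes. The members that were higher at an unadjusted p under 0.05 were 2 of 15 macrophage, 1 of 14 lymphocyte, 0 of 9 neutrophil and 1 of 12 leukocyte markers, beside 2.2% of all tested genes, and none passed the adjusted threshold. The summed level of the macrophage markers was 17.1 to 172 CPM in Chow+T and 14 to 3170 CPM in WSD+T, with 3170 in WSD+T 6 and at most 109 in the other 5. Without WSD+T 6 the median of the macrophage markers was -0.31 and that of the leukocyte markers 0.57. The lymphocyte and neutrophil medians were 2.11 and 2.26 without it. Their summed levels were 0.647 to 2.87 and 3.28 to 14.1 CPM in Chow+T, against 1.61 to 41.6 and 4.26 to 249 CPM in WSD+T, where WSD+T 6 was highest. Without WSD+T 6 the highest WSD+T sums were 32.2 and 128 CPM. The leukocyte markers summed to a median of 2350 CPM in Chow+T and 2390 CPM in WSD+T. Without WSD+T 3 and 6 the medians were -1.26 for macrophage, 0.73 for lymphocyte and -0.53 for leukocyte markers. The macrophage median was 5.93 without Chow+T 2. Without testosterone the diet medians were 3.21 for macrophage, 4.28 for lymphocyte, 1.74 for neutrophil and 3.44 for leukocyte markers. With WSD+C 4 left out these were 0.28, -0.98, -1.76 and -0.49. In bulk RNA, fewer cells of a type and less RNA per cell cannot be told apart.

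CD14, the lipopolysaccharide coreceptor of monocytes and macrophages, was at 4.47, 10.9, 3.88 and 4.22 CPM in Chow+T 1 to 4. In WSD+T its median was 6.69 CPM, with 4.18 at the lowest and 115 in WSD+T 6. The log2 fold change of 2.15 (SE 0.938) became 0.50 without that library. CORO1A, an actin-binding coronin of blood cells, was at 2.86, 3.98, 2.95 and 3.66 CPM in Chow+T 1 to 4 and at 4.37 to 82.2 CPM in WSD+T, with a median of 6.73. It was the only leukocyte marker whose groups did not overlap, at a log2 fold change of 2.70 (SE 1.26) and of 1.53 without WSD+T 6. MS4A1, the B cell antigen CD20, was at 0, 0, 0.0782 and 0.145 CPM in Chow+T 1 to 4 and at 0.0868 to 4.97 CPM in WSD+T, again highest in WSD+T 6. Of the B cell genes given here, FCRL1 had its highest count of the 10 libraries in WSD+T 3, FCER2 its highest level in WSD+T 4 and MS4A1 in WSD+T 6, which are the 3 WSD+T libraries with a degenerating oocyte. Chow+T 1, also with a degenerating oocyte, had 0 counts of FCRL1, 0 CPM of MS4A1 and 0.628 CPM of FCER2. WSD+T 2, with an MI oocyte, had more MS4A1 (0.677 CPM) than WSD+T 4 (0.481 CPM). The part of oocyte class in these levels was not tested.

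**Figure D3:**
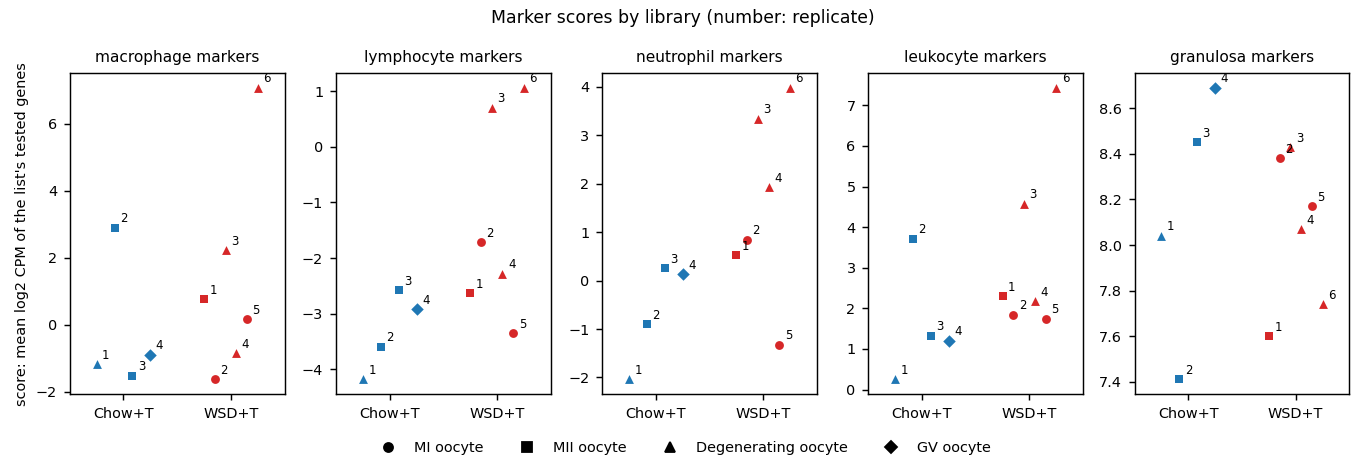
Marker score of each library, which is the mean log2 CPM of a list's tested genes, for macrophage, lymphocyte, neutrophil, leukocyte and granulosa markers. Each point is 1 library, numbered by replicate, and its shape gives the oocyte class. WSD+T 6 has the highest score of all 10 libraries for the 4 white blood cell lists, and the granulosa scores of the groups overlap.

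Markers of other cells had mostly positive log2 fold changes too. The tested members were positive in 8 of 8 for erythroid cells (median 0.62), 5 of 5 for platelets (0.83), 6 of 6 for endothelium (0.58) and 8 of 9 for smooth muscle (1.57). They were positive in 5 of 9 for theca and stroma (0.21), 7 of 8 for surface epithelium (0.30) and 8 of 9 for the oocyte (0.81). Without WSD+T 6 these medians were, in the same order, 0.26, 0.53, 0.21, 1.31, 0.28, 0.35 and 0.48, and that of the oocyte markers was -0.18 without WSD+T 1. The summed erythroid markers were 34.9 to 2370 CPM in Chow+T and 146 to 2390 in WSD+T, and the platelet markers 255 to 437 and 284 to 480. Theca and stroma markers summed to 244 to 275 and 157 to 315 CPM, with the stromal proteoglycan LUM at 0 in all 10 libraries. Endothelial markers summed to 10.4 to 33.3 and 8.93 to 132 CPM, with CLDN5 at 0 throughout and at most 29.8 without WSD+T 6. Smooth muscle markers summed to 25.2 to 118 and 43.2 to 189 CPM, surface epithelium to 27.4 to 60.6 and 28.5 to 228, with the highest in WSD+T 3, and oocyte markers to 2.95 to 4.24 and 2.63 to 14, with the highest in WSD+T 1. Granulosa markers summed to 9370 to 21000 CPM in Chow+T and 9950 to 18100 in WSD+T. Of 12 granulosa markers 5 had a positive and 7 a negative log2 fold change, with a median of -0.19.

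Steroid synthesis genes averaged slightly higher in WSD+T, and no member had an unadjusted p under 0.05. Of 16 tested members 14 had a positive log2 fold change, with a median of 0.25 that ran from 0.08 without Chow+T 2 to 0.42 without Chow+T 4. Without testosterone the same list had 6 positive members and a median of -0.18, or -0.03 without WSD+C 4. STAR, the cholesterol carrier, was at 1896, 394.2, 3076 and 4259 CPM in Chow+T 1 to 4 and at 2323, 2513 and 5019 CPM at the lowest, median and highest in WSD+T. Chow+T 1 and 2 lay below all WSD+T libraries and Chow+T 3 and 4 within their range. The log2 fold change of 0.42 had a 95% interval of -1.02 to 1.86. CYP11A1 was at 429.7, 164.6, 634.7 and 1250 CPM in Chow+T 1 to 4 and at 361.9 to 1040 CPM in WSD+T (log2 fold change 0.13, 95% interval -1.19 to 1.45). Its sign was negative without Chow+T 2 (-0.19). HSD3B2 was at 487.5, 22.8, 283.5 and 425.1 CPM in Chow+T 1 to 4 and at 153.1 to 2052 CPM in WSD+T with a median of 639.4. WSD+T 3 (2052) and WSD+T 6 (1394) were far above the rest, and the interval of its log2 fold change of 1.52 was -0.60 to 3.64.

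CYP19A1, the aromatase that makes estradiol, was at 325.8, 160.8, 766.7 and 491.9 CPM in Chow+T 1 to 4 and at 108.4 to 731.0 CPM in WSD+T (log2 fold change -0.17, 95% interval -1.72 to 1.38). The gonadotropin receptor LHCGR had a log2 fold change of 0.11 (95% interval -1.44 to 1.66), with 11.6 to 15.2 CPM in Chow+T and 1.96 to 25.2 in WSD+T. FSHR was at 2.02, 8.36, 7.38 and 8.38 CPM in Chow+T 1 to 4 and at 2.06 to 6.14 CPM in WSD+T, so that Chow+T 1 alone lay low. Its diet difference was -0.64 on the log2 scale with testosterone. Without testosterone it was 1.85 (SE 0.795), which rested on WSD+C 4 at 81.0 CPM, beside 3.81 to 6.74 in the other WSD+C libraries and 3.01 to 7.80 in Chow+C. With WSD+C 4 left out it was -0.10 (SE 0.413), and the interaction of -2.49 (edgeR unadjusted p = 0.0307) became -0.54 (edgeR unadjusted p = 0.344).

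Cholesterol and lipid lists had small positive medians, beside a median of 0.04 over all tested genes, of which 55% were positive. Of 22 tested genes of cholesterol synthesis 16 were positive, with a median of 0.20, and none had an unadjusted p under 0.05. HMGCS1, an early enzyme of the mevalonate pathway, was at 402.9, 148.7, 434.8 and 564.5 CPM in Chow+T 1 to 4 and at 373.5 to 679.7 CPM in WSD+T with a median of 456.8. Apart from Chow+T 2 the groups overlapped, and the log2 fold change was 0.31 (95% interval -0.76 to 1.38). INSIG1, which holds SREBP back through the sterol sensor SCAP, had a log2 fold change of 0.34 (95% interval -0.41 to 1.09). Chow+T 2 was the lowest Chow+T library for both, as it was for STAR and HSD3B2, and without it the list's median was -0.03. That library also had the highest macrophage score of Chow+T and the lowest granulosa score of the 10, and the part of its cell content in these levels was not tested. Once the leukocyte score entered the fit, the median of cholesterol synthesis was 0.68.

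The lipoprotein uptake list had 8 of 13 members positive, beside 55% of all tested genes. Its median was 0.07, and -0.12 without WSD+T 6. SCARB1, the receptor for high density lipoprotein, averaged 5393 CPM ± 1901 (SD, n = 4) in Chow+T and 4323 ± 1733 (SD, n = 6) in WSD+T. Its log2 fold change was -0.32 (95% interval -1.76 to 1.12). ABCA1, which exports cholesterol, was at 120.0 to 270.4 CPM in Chow+T and at 176.3 to 242.5 CPM in 5 WSD+T libraries, but at 21.9 CPM in WSD+T 3. Its log2 fold change was -0.09 with that library and 0.14 without it.

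For fatty acid synthesis 11 of 15 members were positive (median 0.11, and 0.01 without Chow+T 2). For triglyceride and lipid droplet genes 9 of 16 were positive, beside 55% of all tested genes (median 0.13, and -0.19 without WSD+T 6). FASN, the fatty acid synthase, averaged 326.6 CPM ± 70.0 (SD, n = 4) and 364.5 ± 64.4 (SD, n = 6), and SCD, the stearoyl-CoA desaturase, 1907 ± 581.1 and 1973 ± 385.5, in Chow+T and WSD+T. Their log2 fold changes were 0.16 (95% interval -0.39 to 0.71) and 0.05 (-0.79 to 0.89). GPAM, which starts glycerolipid synthesis, was at 43.8, 23.0, 22.6 and 15.9 CPM in Chow+T 1 to 4 and at 28.2 to 100.1 CPM in WSD+T, with a median of 33.3. The values of 100.1 and 94.7 CPM were those of WSD+T 3 and 6, and the log2 fold change was 1.01 (SE 0.421, edgeR unadjusted p = 0.0274). PLIN2, a lipid droplet coat protein, was at 24.3 to 53.5 CPM in Chow+T and at 24.9 to 81.0 CPM in WSD+T, with 81.0 in WSD+T 3 (log2 fold change 0.32, and 0.07 without WSD+T 3).

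Fatty acid oxidation had 19 of 24 members positive and a median of 0.22, with 0.10 and 16 positive without testosterone (0.22 and 19 without WSD+C 4). CPT1A, which admits fatty acids to mitochondria, was at 28.2, 18.7, 44.5 and 46.4 CPM in Chow+T 1 to 4. In 4 WSD+T libraries it was at 27.4 to 42.4 CPM, within the Chow+T range, and in WSD+T 3 and 6 at 279.3 and 148.9. The log2 fold change of 1.45 (SE 0.68) was -0.04 without these 2 libraries. PDK4, which turns pyruvate away from oxidation, was at 2.73, 15.6, 16.3 and 13.3 CPM in Chow+T 1 to 4 and at 2.50 to 13.7 CPM in 5 WSD+T libraries, but at 71.9 in WSD+T 6. Its log2 fold change was 0.48 with that library and -1.08 without it. Nuclear genes of the respiratory chain had 19 of 23 members positive and a median of 0.11, and glycolysis 16 of 22 and 0.21.

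Genes of insulin and insulin-like growth factor signalling averaged lower in WSD+T, with 6 of 22 positive and a median of -0.21, which ran from -0.25 to -0.12 as single libraries were left out. Without testosterone the median was 0.08 with 14 positive (0.12 and 13 without WSD+C 4). PIK3CA, a catalytic subunit of phosphoinositide 3-kinase, was at 50.2, 70.4, 88.1 and 81.9 CPM in Chow+T 1 to 4 and at 36.4, 43.3 and 62.4 CPM at the lowest, median and highest in WSD+T. Chow+T 1 lay inside the WSD+T range and the other 3 above it, and the log2 fold change was -0.61 (SE 0.19, edgeR unadjusted p = 0.00486). IRS2, an insulin receptor substrate, was at 46.1 to 127.6 CPM in Chow+T and 33.3 to 93.9 in WSD+T (log2 fold change -0.62, 95% interval -1.45 to 0.20). INSR, the insulin receptor, was -0.29 (95% interval -0.91 to 0.34).

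Among genes of the preovulatory granulosa cell 4 of 16 were positive, with a median of -0.23. KITLG, the ligand through which granulosa cells signal to the oocyte, was at 8.61, 92.9, 32.2 and 14.4 CPM in Chow+T 1 to 4 and at 3.68 to 25.8 CPM in WSD+T. Chow+T 2 was high, and the log2 fold change of -1.48 (SE 0.636) was -0.47 without it. PTCH1, the hedgehog receptor, was at 72.2, 82.6, 73.4 and 56.8 CPM in Chow+T 1 to 4 and at 18.8 to 44.1 CPM in 5 WSD+T libraries, with 81.2 in WSD+T 4 (log2 fold change -0.88, SE 0.393). SERPINE2, a serine protease inhibitor abundant in granulosa cells, was at 1973, 2482, 1979 and 2287 CPM in Chow+T 1 to 4. In WSD+T it was at 469.7, 922.9 and 2086 CPM at the lowest, median and highest, and WSD+T 4 alone reached the Chow+T range (log2 fold change -0.99, SE 0.40, edgeR unadjusted p = 0.024). The androgen response list had 9 of 20 positive and a median of -0.03, and its member FKBP5 was -0.07 (95% interval -0.86 to 0.72).

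The ovulatory response list was even, with 12 of 24 positive and a median of -0.01, but 2 WSD+T animals stood out in it. AREG, a ligand of the epidermal growth factor receptor that the gonadotropin surge induces, was at 841.1, 112.1, 269.0 and 220.3 CPM in Chow+T 1 to 4. It was at 191.6 to 398.4 CPM in 4 WSD+T libraries and at 2575 and 3239 in WSD+T 3 and 6, and the log2 fold change of 1.66 (95% interval -0.82 to 4.14) was -0.51 without them. EDN2, the endothelin that granulosa cells make around ovulation, was at 2.33, 0.80, 2.74 and 0.46 CPM in Chow+T 1 to 4. In WSD+T 3 and 6 it reached 161.1 and 151.7 CPM and in the other 4 WSD+T libraries 0.327 to 0.766. With both libraries its log2 fold change was 5.05 (SE 2.01, edgeR unadjusted p = 0.0223) and without them -1.65, the reverse direction. PTGS2, which makes prostaglandin precursors, did not share this pattern: its 6 WSD+T values ran from 343.2 to 1526 CPM, its 4 Chow+T values from 688.4 to 1497, and the log2 fold change was -0.03 (95% interval -1.50 to 1.43). The progesterone receptor PGR was -0.65 (95% interval -1.61 to 0.31), at 21.3 to 63.5 and 16.2 to 42.1 CPM.

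**Figure D4:**
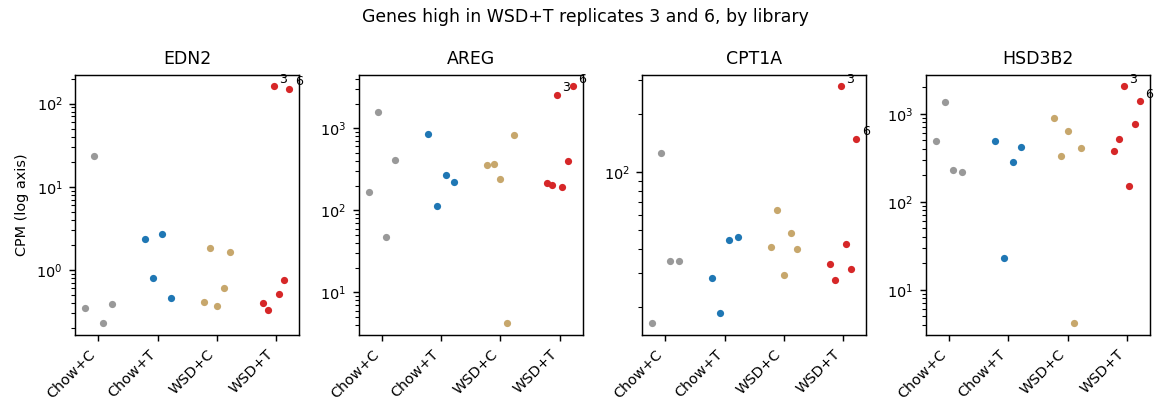
Level of EDN2, AREG, CPT1A and HSD3B2 in CPM on a log axis, 1 point per library, in the 4 treatment groups. WSD+T 3 and WSD+T 6 are numbered: for EDN2 they are at 161.1 and 151.7 CPM while the other WSD+T libraries stay below 1 CPM, and for HSD3B2 they are the 2 highest of WSD+T.

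Both libraries came with degenerating oocytes, as did WSD+T 4 and Chow+T 1, which were at 191.6 and 841.1 CPM for AREG and at 0.519 and 2.33 CPM for EDN2. WSD+T 3 and 6 also had the highest leukocyte scores of WSD+T, 4.58 and 7.43, beside 1.74 to 2.30 in the rest. In Chow+C, replicate 2 was likewise the highest of its group for all 4 genes. It was at 23.2 CPM for EDN2 (others 0.232 to 0.391), 1576 for AREG (46.7 to 412.2), 126.5 for CPT1A (16.5 to 34.5) and 1380 for HSD3B2 (220.2 to 490.5). That library came with an MI oocyte and had a leukocyte score of 0.76, beside 0.48 to 2.79 in the rest of Chow+C. It also had the highest share of mitochondrially encoded counts of the 19 libraries, 17.9%. Its share of reads in genes (49.1%) and its gene counts (28832132) were the lowest of the 19. The part of oocyte class, of leukocytes or of library quality in these levels was not tested.

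Among the remaining lists, immediate early genes had 13 of 22 members positive (median 0.21), cytokines and NF-kB 11 of 17 (0.22), prostaglandin pathway 11 of 16 (0.39, and 0.12 without WSD+T 3) and angiogenesis, with EDN2, 13 of 20 (0.17). Interferon response genes had 19 of 22 positive and a median of 0.40, none with an unadjusted p under 0.05. Their median was 0.11 without WSD+T 6 and -0.07 once the leukocyte score entered the fit. IL18R1, an interleukin 18 receptor chain, was the cytokine gene of smallest p, at 6.16, 3.64, 1.46 and 5.62 CPM in Chow+T 1 to 4 and at 1.10 to 2.73 CPM in WSD+T (log2 fold change -0.95, SE 0.437). Chow+T 3 alone fell within the WSD+T range.

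Cell cycle genes had 7 of 30 members positive and a median of -0.40. Without testosterone 21 were positive, with a median of 0.10, but 9 were, with a median of -0.05, when WSD+C 4 was left out. CCNE1, the cyclin of entry into S phase, was at 3.88, 4.07, 4.33 and 2.01 CPM in Chow+T 1 to 4 and at 1.25 to 2.66 CPM in WSD+T, where Chow+T 4 lay inside the range (log2 fold change -0.78, SE 0.33). Leaving out single libraries kept the median of the list between -0.55 and -0.19, but with oocyte class as a term and Chow+T 4 left out it was 0.49. Matrix genes had 5 of 21 positive (median -0.26), endoplasmic reticulum stress genes 4 of 20 (-0.23) and TGF-beta and BMP signalling 10 of 25 (-0.09). SMAD4, the mediator shared by TGF-beta and BMP signals, was at 72.4, 69.4, 90.6 and 78.5 CPM in Chow+T 1 to 4 and at 58.2 to 70.2 CPM in WSD+T. Only Chow+T 2 and WSD+T 3 crossed, for a log2 fold change of -0.27 (SE 0.113).

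Oxidative stress defence had 14 of 20 members positive and a median of 0.13. SRXN1, the sulfiredoxin that restores peroxiredoxins, was at 27.7, 21.7, 26.1 and 21.8 CPM in Chow+T 1 to 4 and at 27.0, 36.3 and 56.3 CPM at the lowest, median and highest in WSD+T (log2 fold change 0.71, SE 0.272, edgeR unadjusted p = 0.0174). WSD+T 4 and Chow+T 1 just crossed. HSPH1, a large heat shock protein, was at 44.98 to 68.9 CPM in Chow+T and 51.1 to 150.3 in WSD+T (log2 fold change 0.80, SE 0.358), within a heat shock list of 7 of 10 positive and a median of 0.08. BBS12, of the cilium, had a log2 fold change of -0.66 (SE 0.306) and the same sign without testosterone, -1.09 (SE 0.32, edgeR unadjusted p = 0.00321), or -0.99 (SE 0.336, edgeR unadjusted p = 0.00924) without WSD+C 4. BBS12 was at 17.8, 20.5, 18.2 and 13.4 CPM in Chow+T 1 to 4 and at 7.66 to 15.5 CPM in WSD+T, so that only Chow+T 4 lay in the WSD+T range. The cilium list as a whole had 9 of 21 positive and a median of -0.02.

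**Figure D5:**
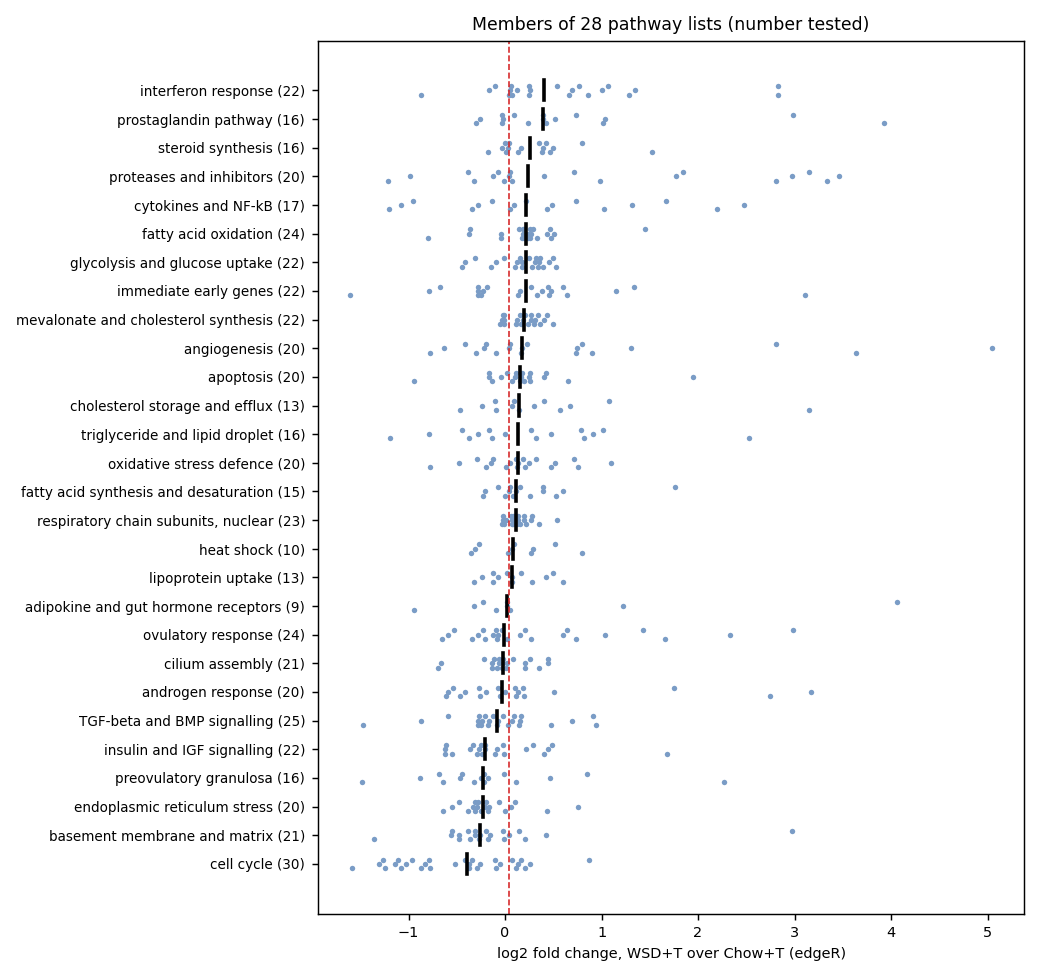
Log2 fold change of WSD+T over Chow+T (edgeR) of the tested members of 28 pathway lists, 1 point per gene, ordered by their medians (black bars). The dashed line is the median of all tested genes, 0.04. List medians lie between -0.40 (cell cycle) and 0.40 (interferon response), and the members of most lists lie on both sides of the line.

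Across the 28 pathway and 12 marker lists, 0 members passed the adjusted threshold. The lists are given by counts and medians alone, since they were chosen with earlier results of these data known.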

How the data were processed

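The authors deposited 1 table of raw counts, with genes in rows and the 19 libraries in columns, and every column matched 1 sample's label. Total RNA from a Promega ReliaPrep extraction went into TruSeq v2 libraries with polyA selection and no strand information, per the labels' protocols. The submitters' processing notes name Trimmomatic and STAR. Their versions, the counter, the build and the gene models were not given in the sources used here, which is why no coordinates are printed. Since strand was not kept, a gene and an overlapping or antisense neighbour share reads, and near-identical copies are uncertain.

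The table holds 32386 genes, of which 21539 had a symbol in the file and 1383 were given one by identifier from a gene name table. Its 4 classes that name no gene were left out, and 49.1% to 69.1% of reads fell in genes. Gene counts were 28832132 to 56385679 per library. Reads carry no molecular identifiers, so depth sets only the counting error.

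In R 4.3.3, edgeR 4.0.16 kept genes by filterByExpr (minimum count 10, minimum total 15), scaled libraries by TMM and fitted the 4 treatment groups over all 19 libraries. The contrasts were tested two-sided by the quasi-likelihood test in its robust form. P-values were adjusted by Benjamini-Hochberg across the tested genes, with a threshold of 0.05. The log2 CPM values used a prior count of 1. The code was tested on simulated data. Library values were compared by exact permutation tests. The alternatives were DESeq2 1.42.0 without the filterByExpr filter, limma-voom (limma 3.58.1), RLE scaling, no low-count filter, the 10 libraries alone, each library left out, WSD+C 4 left out, and a leukocyte score or the oocyte class as a term. Chosen after the data were seen were leaving out WSD+C 4 with WSD+T 6 or WSD+T 3 with WSD+T 6, and keeping only MII and degenerating libraries of the 2 groups.

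The genes named are the 10 higher and 10 lower genes of smallest p that had a symbol and averaged 0 or more in log2 CPM, the member of smallest p of each list where that p is under 0.05, and a panel of 25 genes, of which 24 were tested and no row matched INHBA. Some panel genes are not reported here. The members, lists and panel were chosen with earlier results of these data known. Of 759 entries in 40 lists (28 of pathways, 12 of cell markers), 710 matched a row.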

Additional observations from a re-analysis of the deposited data

Results flagged for a closer look

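In 13 of 152 sets of values examined, the highest or lowest library lay far from the other libraries of its group (Dixon's test at the 95% level). Each set was a gene, in CPM, or a marker score in 1 of the 2 groups. For normally distributed values chance marks about 1 set in 20, but CPM are skewed and can be marked more often. WSD+T 3 stood apart at 10.9 CPM for SLC35G1 (others 2.00 to 5.13), 21.9 CPM for ABCA1 (others 176.3 to 242.5) and 81.0 CPM for PLIN2 (others 24.9 to 45.3). WSD+T 6 stood apart at 114.6 CPM for CD14 (others 4.18 to 19.2), 4.97 CPM for MS4A1 (others 0.0868 to 1.92), 82.2 CPM for CORO1A (others 4.37 to 25.2) and 71.9 CPM for PDK4 (others 2.50 to 13.7). WSD+T 4 was at 39.5 CPM for C5orf41, against 17.4 to 21.9 in the others, and WSD+T 1 had an oocyte marker score of -0.19, against -3.90 to -3.02. In Chow+T, replicate 3 was at 18.2 CPM for SNX16 (others 4.19 to 5.53), replicate 1 at 2.02 CPM for FSHR (others 7.38 to 8.38), and replicate 2 at 10.9 CPM for CD14 (others 3.88 to 4.47) and at a macrophage score of 2.90 (others -1.52 to -0.89). No diet difference was marked as unlike between animals with and without testosterone, since 0 genes passed edgeR's interaction test.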

How the results depend on the processing

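No paired analysis was possible because the labels give no replicate number that pairs animals across groups. No edgeR or limma-voom alternative called a gene for the diet difference under testosterone, and DESeq2 called 2, and 3 for the interaction. At an unadjusted p under 0.05, the count under testosterone was 1222 with DESeq2, 1256 without WSD+C 4, 348 with oocyte class as a term, 391 without WSD+T 3 and 6, and 389 (without Chow+T replicate 3) to 946 (without WSD+T replicate 4) as single libraries were left out. Without testosterone it was 1157 with DESeq2, 294 with voom and 1410 with no low-count filter. For the interaction it was 1023 with DESeq2, 401 with voom, 1094 with no filter, 1228 without WSD+C 4, and 447 to 909 with single libraries left out. The share of higher genes among those at an unadjusted p under 0.05 was 44.3%, and 45.2% under RLE scaling, 57.4% with DESeq2, 32.3% with voom, 29.3% with the oocyte term, 55.5% without WSD+C 4, 28.1% without WSD+T 3 and 6, and 34.5% (without WSD+T replicate 6) to 58.9% (without Chow+T replicate 2) with single libraries left out. Genes without overlap numbered 230 to 615 with 1 library fewer, which by construction eases separation. Of the list medians, the leukocyte covariate gave 0.68 for cholesterol synthesis, 0.43 for fatty acid synthesis, 0.06 for apoptosis, -0.08 for macrophage, 0.18 for lymphocyte, 0.49 for neutrophil, -0.05 for leukocyte, -1.43 for erythroid, -0.26 for endothelium and 0.30 for smooth muscle markers. The leukocyte covariate is the mean log2 CPM of the leukocyte markers themselves, so their median near 0 is set by construction. Medians of other markers that vary with them are drawn the same way. The oocyte term gave 0.49 for cell cycle, 0.20 for macrophage, 0.86 for leukocyte, 2.47 for smooth muscle and 2.42 for oocyte markers. Without WSD+T 3 and 6 the medians were -1.26 for macrophage, 0.73 for lymphocyte, -0.53 for leukocyte and 0.64 for smooth muscle markers. Without WSD+C 4 and WSD+T 6 they were -0.31 for macrophage and 0.57 for leukocyte markers and -0.19 for triglyceride genes. With only MII and degenerating libraries they were 0.38 for triglyceride genes, 0 for glycolysis and 2.45 for oocyte markers. For surface epithelium the median was 1.11 with DESeq2 and 1.08 with no filter. With single libraries left out, medians ran from -0.31 to 5.93 for macrophage, 0.57 to 5.18 for leukocyte and -0.08 to 0.52 for theca and stroma markers, and from -0.19 to 0.25 for triglyceride genes. The sign of a named gene turned in the following cases. Without WSD+T 3 and 6 the log2 fold change was -0.04 for CPT1A, -1.65 for EDN2, -0.08 for CD14, -0.31 for CYP11A1, 0.24 for CYP19A1, 0.12 for ABCA1, -0.98 for PDK4 and -0.51 for AREG. With the oocyte term it was -0.20 for EDN2, -0.07 for LHCGR, 0.21 for ABCA1, -0.02 for PLIN2 and -0.25 for PDK4. With the leukocyte covariate it was 0.47 for CYP19A1, 0.18 for SCARB1, -0.54 for PDK4, 0.09 for PTGS2 and 0.10 for FKBP5. With voom it was -0.15 for LHCGR and -0.37 for PDK4, and without WSD+C 4 and WSD+T 6 it was -0.03 for CYP11A1, 0.02 for CYP19A1 and -1.08 for PDK4. With single libraries left out it ran from -0.26 to 0.14 for ABCA1, -0.19 to 0.73 for CYP11A1, -0.45 to 0.25 for CYP19A1, -0.22 to 0.03 for FKBP5, -0.12 to 0.34 for LHCGR, -1.08 to 0.71 for PDK4, -0.21 to 0.16 for PTGS2 and -0.12 to 0.25 for SCD. The cause of these changes was not tested. The 10 higher and 10 lower genes of smallest p kept their direction under all these settings, and the 10 lower genes an unadjusted p under 0.05. The higher genes kept it in 10 of 10, but for 9 with voom, 7 with the oocyte term and 7 without WSD+T 3 and 6. At these depths the biological coefficient of variation over all 19 libraries was 0.583.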

Other observations

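Several protein complexes, picked by their symbol prefix after values were seen and so given with no test, lay on 1 side. Of 32 tested proteasome subunits (symbols PSMA to PSMD, each counted once, without the assembly chaperones PSMD5, PSMD9 and PSMD10), which form the protease that degrades ubiquitin-tagged proteins, 31 had a positive log2 fold change in WSD+T over Chow+T, with a median of 0.30 that ran from 0.22 to 0.34 as single libraries were left out and was 0.31 without WSD+T 3 and 6. Among them 8 (25%) were higher without overlap between the groups, beside 0.586% of all tested genes. An unadjusted p under 0.05 was reached by 6, all higher, beside 2.2% of all tested genes. PSMB8, an immunoproteasome subunit that interferon induces, averaged 19.6 CPM ± 2.39 (SD, n = 4) in Chow+T and 31.3 ± 6.64 (SD, n = 6) in WSD+T, and PSMD1, of the regulatory particle, 121.7 ± 13.1 and 167.6 ± 15. PSMC4, an ATPase of that particle, was at 62.2 to 82.8 CPM in Chow+T and 89.2 to 116.8 in WSD+T. The list-wide score, a mean log2 CPM, was 6.01 to 6.39 in Chow+T and 6.36 to 6.68 in WSD+T, so that the groups just met. It was 5.85 to 6.67 in Chow+C and 5.69 to 6.64 in WSD+C. Without testosterone 27 of the 32 were positive, with a median of 0.14, and 30 with a median of 0.27 when WSD+C 4 was left out.

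All 10 tested subunits of the RNA exosome, which trims and degrades RNA, were positive. Their median of 0.22 ran from 0.10 without Chow+T 2 to 0.29 without Chow+T 4. Of them 3 (30%) were higher without overlap (EXOSC1, EXOSC2 and EXOSC9), beside 0.586% of all tested genes. Without testosterone 6 of the 10 were positive with a median of 0.01, or 6 with 0.06 when WSD+C 4 was left out. EXOSC9 was at 8.11 to 9.52 CPM in Chow+T and at 10.3 to 12.6 in WSD+T. The CCT chaperonin, which folds actin and tubulin, had 8 of 8 subunits positive (median 0.24), and mitochondrial ribosomal proteins 57 of 63 (median 0.17). Both were mostly positive without testosterone too, at 7 of 8 (median 0.15) and 54 of 63 (median 0.09). With WSD+C 4 left out these were 7 (median 0.21) and 56 (median 0.20). Cytosolic ribosomal proteins had 11 of 61 positive and a median of -0.10 under testosterone, which ran from -0.19 without Chow+T 1 to 0 without Chow+T 4 and was -0.01 without WSD+T 3 and 6. With the oocyte term, a fit that also leaves out Chow+T 4, it was 0.20. The parts of single libraries and of oocyte class in this level cannot be told apart. Without testosterone 61 were positive with a median of 0.38, or 59 with 0.21 when WSD+C 4 was left out. Of 403 ZNF zinc finger genes, 20 were lower and 2 higher at an unadjusted p under 0.05, beside 2.77% and 2.2% of all genes, with a median of -0.01. Members of 1 complex are not independent of each other, and none of these genes passed the adjusted threshold.

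The SD among animals was larger in WSD+T than in Chow+T, and came near that of Chow+T without WSD+T 6. The median SD of log2 CPM over genes was 0.461 in WSD+T (n = 6), 0.412 in WSD+T without replicate 6 and 0.392 in Chow+T (n = 4), and 3031 genes (20.2%), 2534 (16.9%) and 2246 (15%) had an SD over 1. An SD from fewer libraries tends to run lower, so values at unlike n cannot show that the spread itself differed, which was not tested.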
